A study of Mus musculus with 2 samples.

Results

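The genes described here are 6 of the 32285 in the count tables: Cxcl1, Cxcl2, Cxcl3 and Cxcl5, whose proteins attract neutrophils through the receptor Cxcr2, together with Cxcr2 itself and Csf3. They were taken by gene symbol, without regard to their measured values, and all 6 symbols were found. Their UMIs (unique molecular identifiers, 1 per captured transcript) were followed in droplet single-cell RNA-seq of mononuclear cells from the limb muscle of aged mice. One group of mice received DMSO, the vehicle, and the other received MVC (Maraviroc), a small-molecule drug. In both groups, muscle was digested with collagenase and dispase, red blood cells were lysed and live cells were sorted, and the sources used here do not say how many mice went into a library. Each group was 1 library, so no difference between groups could be tested, and every value describes these 2 libraries. After barcodes under 500 genes or over 10% mitochondrial UMIs were removed, the DMSO library held 5437 cells of 5812 barcodes and the MVC library 5454 of 6047. They summed to 38748234 and 35518029 UMIs, with medians of 5802 and 5195 UMIs per cell, and 8 barcodes occurred in both.

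Neutrophil-attracting CXC chemokines are small secreted proteins that bind heparan sulphate on tissue and vessel surfaces and guide neutrophils out of the blood. Csf3 encodes granulocyte colony-stimulating factor (G-CSF), which drives neutrophil production in bone marrow and their release. In stromal cells, ECs and macrophages these genes are induced within a short time by interleukin-1, tumour necrosis factor and microbial products through NF-κB, and their mRNAs carry AU-rich elements that promote rapid decay. In injured muscle, neutrophils are among the first leukocytes to enter. Enzymatic dissociation also induces many immediate-early genes, so such a list was measured beside the members.

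The 4 chemokine genes lie on chromosome 5, and the 3 with a promoter sequence share a run of letters before their starts. In the GRCm38 annotation, Cxcl5 (5:90759360 to 90761624), Cxcl3 (5:90786103 to 90789600), Cxcl1 (5:90891241 to 90893115) and Cxcl2 (5:90903871 to 90905938) are on the + strand within 146.579 kb. Csf3 is at 11:98701263 to 98703629 and Cxcr2 at 1:74153989 to 74161246, both also on the + strand. RefSeq promoter sequences (GRCm38.p6) were matched for 4 of the 6 members, Cxcl1, Cxcl2, Cxcl3 and Cxcr2. The windows below cover the bases from 130 to 21 before the RefSeq start of the 3 chemokines, and are shown for the longest run of letters that all 3 have in the 250 bases before their starts. Capitals mark this run, GGGAATTTCCC, which has the form of an NF-κB site.
Cxcl1, chr5:90891115-90891224, + strand: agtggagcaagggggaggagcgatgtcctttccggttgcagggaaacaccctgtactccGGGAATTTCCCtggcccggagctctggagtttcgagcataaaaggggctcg
Cxcl2, chr5:90903769-90903878, + strand: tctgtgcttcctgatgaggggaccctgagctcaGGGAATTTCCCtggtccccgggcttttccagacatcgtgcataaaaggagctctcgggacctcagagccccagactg
Cxcl3, chr5:90785971-90786080, + strand: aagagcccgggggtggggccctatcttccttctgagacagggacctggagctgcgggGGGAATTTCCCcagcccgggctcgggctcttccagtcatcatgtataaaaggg
GGGAATTTCCC began 71 bases before the RefSeq start of Cxcl1, 97 before that of Cxcl2 and 73 before that of Cxcl3. The RefSeq start of Cxcl2 lies downstream of the annotated gene start, 90903871, so its window, which ends at 90903878, runs past the latter. In the 250 bases before the starts of all genes in the promoter table, 14 of 27025 (0.0518%) held it on either strand. The run was found by comparing the 3 genes, and a match is not evidence of a factor at the site.

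The 3′ UTRs of the chemokines and of Csf3 hold ATTTA pentamers, the core of AU-rich elements. The longest annotated 3′ UTR of Cxcl1 held 7 in 592 bases, that of Cxcl2 11 in 1494, that of Cxcl3 5 in 645, that of Cxcl5 5 in 1111 and that of Csf3 6 in 669. Per 100 bases, of the 19938 genes with a 3′ UTR of at least 100 bases, 0.471% had at least the density of Cxcl1, 1.19% at least that of Csf3, 9.81% at least that of Cxcl5 and 55.1% at least that of Cxcr2, which held 2 in 1818 bases. The first 30-base stretch of each chemokine or Csf3 3′ UTR with the most pentamers is shown to make these densities visible, with ATTTA in capitals (GRCm38), and in Cxcl5 no such stretch held more than 1.
Cxcl1, chr5:90892602-90892631, + strand: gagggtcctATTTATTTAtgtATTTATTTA
Cxcl2, chr5:90905327-90905356, + strand: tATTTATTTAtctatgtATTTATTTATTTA
Cxcl3, chr5:90787629-90787658, + strand: caagatggcatcttATTTAatgtttATTTA
Cxcl5, chr5:90760634-90760663, + strand: agcttcctgctcatctcacaagtgtATTTA
Csf3, chr11:98702984-98703013, + strand: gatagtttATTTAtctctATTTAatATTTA
Between the transcripts themselves, 7.59% of the 31-base words of Cxcl2 also occur in another gene, namely Cxcl3, but none of those in its last 500 bases, where 3′-end counting places most reads. In Cxcr2, 17.7% of the words of the last 500 bases occur in other genes, so its UMIs are less certain than those of the other members, which share none there.

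To place the UMIs in cell types, cells were clustered with the 6 members and 48 genes of their pathway left out, so that the members did not draw the clusters. Of 27 clusters, all but 2 could be named by fixed markers, and names are written with "-like" since they rest on these markers alone. In each of the 13 classes described, all of its own markers had at least 1 UMI in both libraries. This is no test of the names, since the same markers gave them. Markers of other classes were also detected, such as all 8 EC markers in FAP-like cells of both libraries. Levels are UMIs of a gene per 1000000 UMIs of the class (CPM), with exact Poisson 95% intervals, and a ratio is the MVC level over the DMSO level with its exact conditional interval. All intervals cover counting error only, neither the spread between mice nor between cells.

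Over all cells, the summed level of the 4 chemokines was near that of the vehicle library, while their sources differed gene by gene. The sum was 2883 CPM in DMSO and 2710 CPM in MVC (ratio 0.940, 0.932 to 0.948). Cxcl1 was at 2034 and 2057 CPM (78797 and 73073 UMIs; ratio 1.012, 1.002 to 1.022). Cxcl2 was lower in MVC, at 777 and 590 CPM (ratio 0.760, 0.747 to 0.774). The differences in the other chemokines were smaller: Cxcl3 was at 39.6 and 34.6 CPM (ratio 0.872, 0.808 to 0.941) and Cxcl5 at 33.3 and 27.8 CPM (ratio 0.833, 0.766 to 0.906). Without the 3 cells with most Cxcl3 UMIs in each library, its log2 difference went from -0.20 to 0.21. Csf3 was at 88.0 and 80.5 CPM (ratio 0.915, 0.870 to 0.962). Cxcr2 was at 6.06 and 3.86 CPM (235 and 137 UMIs; ratio 0.636, 0.511 to 0.788). Of the 6 members, 0 were at least 1.5-fold higher and 1, Cxcr2, at least 1.5-fold lower, and of the 19140 genes with at least 20 UMIs 9.52% were higher and 7.54% lower by that fold. The log2 difference of Cxcr2, -0.65, was -0.42 without doublet-scored cells and -0.39 as a mean over cells of each cell's CPM, both short of that fold. Neutrophil-like cells, which held nearly all Cxcr2 UMIs, were 64 of 5437 cells in DMSO and 34 of 5454 in MVC. In a level summed over all cells, fewer cells of a type and less RNA per cell cannot be told apart, so the classes are taken one by one.

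**Figure D1:**
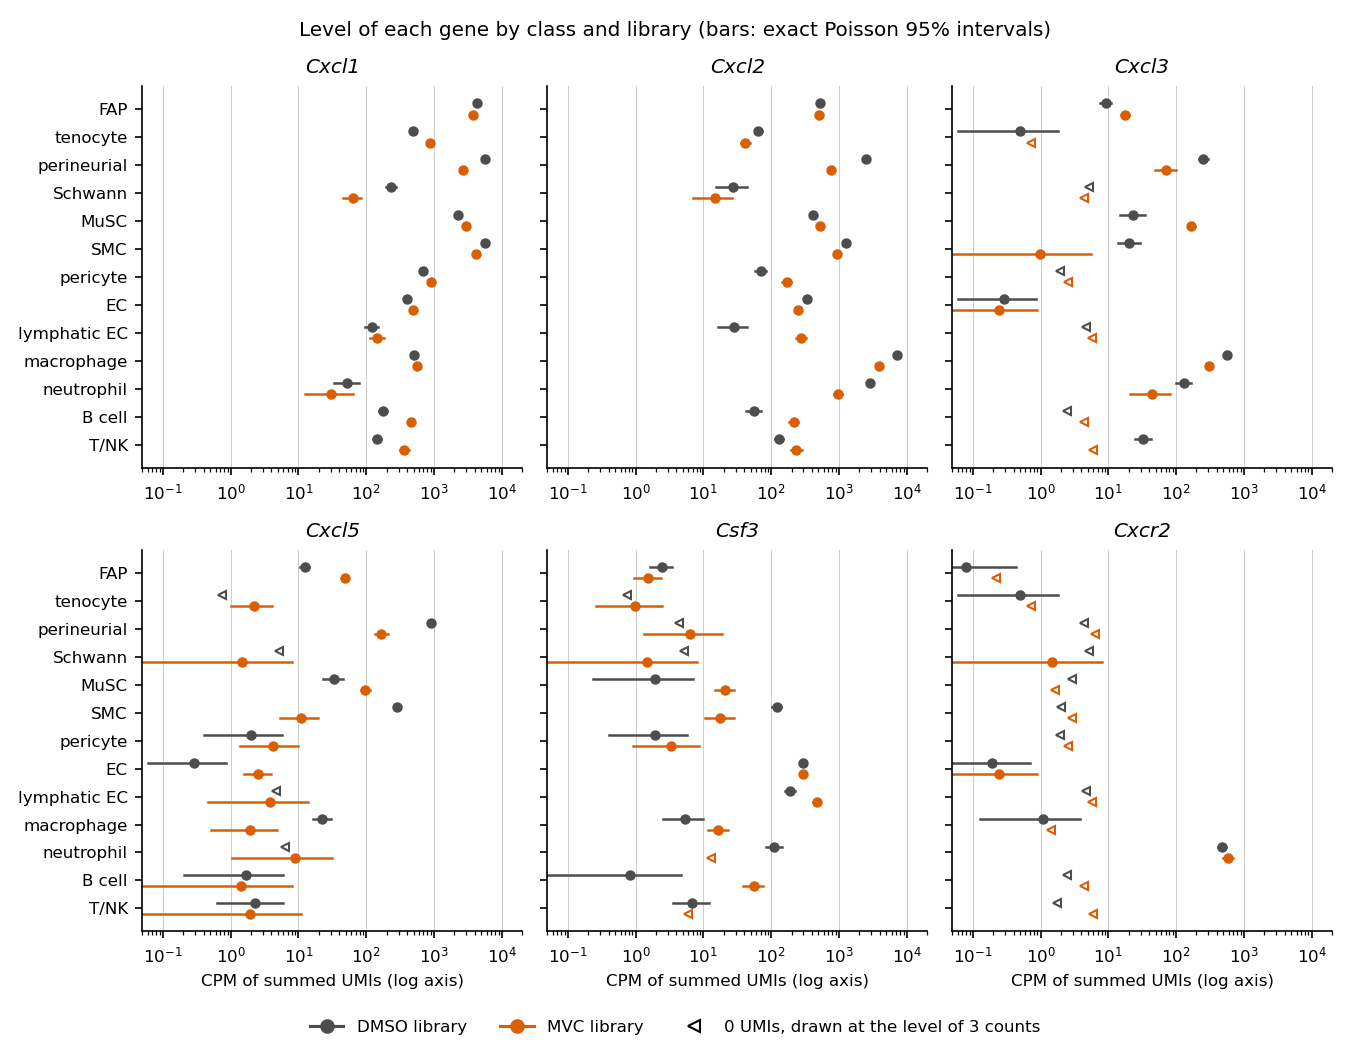
Level of each of the 6 genes (x axis, CPM of summed UMIs, log scale) in 13 classes of cells (y axis), with 1 point per library (grey DMSO, orange MVC), bars for exact Poisson 95% intervals and open triangles for classes with 0 UMIs drawn at the level of 3 counts. Cxcl1 reached 5688 CPM in perineurial-like cells, Cxcl2 7327 CPM in macrophage-like cells, Csf3 470 CPM in lymphatic EC-like cells and Cxcr2 588 CPM in neutrophil-like cells.

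Cxcl1 UMIs came mostly from FAP-like cells, and its highest levels were in perineurial-like, SMC-like, FAP-like and MuSC-like cells. These fibro-adipogenic progenitor (FAP)-like cells held 70.0% of its UMIs in DMSO and 69.3% in MVC, while making up 21.6% and 26.1% of the cells. In DMSO its level was 5688 CPM in perineurial-like cells (the sheath cells of nerve bundles), 5646 CPM in smooth muscle cell (SMC)-like cells, 4325 CPM in FAP-like cells and 2242 CPM in muscle stem cell (MuSC)-like cells. The intervals of the first 2 overlapped, and the next were separate. Pericyte-like cells followed with 683 CPM, macrophage-like cells with 506 CPM, tenocyte-like cells with 493 CPM and EC-like cells with 398 CPM. In MVC the order was SMC-like (4105 CPM), FAP-like (3728 CPM), MuSC-like (3002 CPM) and perineurial-like cells (2642 CPM), all with separate intervals, and then pericyte-like (891 CPM) and tenocyte-like cells (888 CPM), which overlapped. B cell-like (180 and 460 CPM), T/NK-like (145 and 367 CPM), lymphatic EC-like (121 and 146 CPM) and Schwann-like cells (233 and 62.9 CPM) were lower, and neutrophil-like cells were last in both libraries, at 52.2 and 30.7 CPM.

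To compare the share of cells with a UMI, each cell was thinned to 2000 UMIs, which left out 447 DMSO and 981 MVC cells that held fewer. A Cxcl1 UMI was then found in 67.8% of FAP-like cells in DMSO and 64.8% in MVC (79.7% and 73.9% with all UMIs, at medians of 10387 and 9206 UMIs per cell). In B cell-like cells, which are not known as a source, the thinned share was 3.94% in DMSO and 14.1% in MVC (8.70% and 15.1% unthinned, at medians of 5088 and 5412 UMIs per cell), so a share of this size was read as background. Unthinned, and among classes with at least 50 cells in both libraries, the class with the lowest Cxcl1 level had 17.3% in DMSO (lymphatic EC-like) and 21.3% in MVC (Schwann-like). The thinned shares of SMC-like cells (68.7% and 65.3%), perineurial-like cells (68.4% and 63.8%) and MuSC-like cells (54.7% and 63.7%) were far above it in both libraries.

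Within FAP-like cells, Cxcl1 separated the clusters although it had not been used to draw them. In the cluster led by Ifi205, Ptx3 and Has1 (cluster 3), Cxcl1 was at 6679 CPM in DMSO and 7173 CPM in MVC, and 94.3% and 98.2% of cells had a UMI. The cluster led by Dmkn and Sbsn (cluster 15) had 4378 and 5368 CPM. The cluster led by Cxcl14 and Smoc2 (cluster 1) had 1991 and 1634 CPM, and the cluster led by Pi16 (cluster 14) had 828 and 769 CPM. Cluster 3 alone held 49.4% of all Cxcl1 UMIs in DMSO and 43.2% in MVC. Ptx3 and Has1, which encode a soluble pattern recognition protein and a hyaluronan synthase, led the cluster with the highest Cxcl1 level of the FAP-like class in each library.

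The FAP-like ratio of Cxcl1 depended on which of these clusters each library held. Over the class the level was 4325 CPM in DMSO and 3728 CPM in MVC (ratio 0.862, 0.852 to 0.872). The largest FAP-like cluster was cluster 3 in DMSO, with 508 of 1175 cells, and cluster 1 in MVC, with 719 of 1423 cells. Within cluster 3 the ratio was 1.07 (1.06 to 1.09) and within cluster 15 it was 1.23 (1.19 to 1.27), whereas within cluster 1 it was 0.821 (0.797 to 0.844) and within cluster 14 it was 0.929 (0.849 to 1.02). With the cluster mix of DMSO used for both libraries, the class difference moved from -0.21 to 0.07 on the log2 scale, and its sign changed. In this class the median of genes with at least 50 UMIs was itself shifted by 0.135 on the log2 scale, to the side of MVC.

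**Figure D2:**
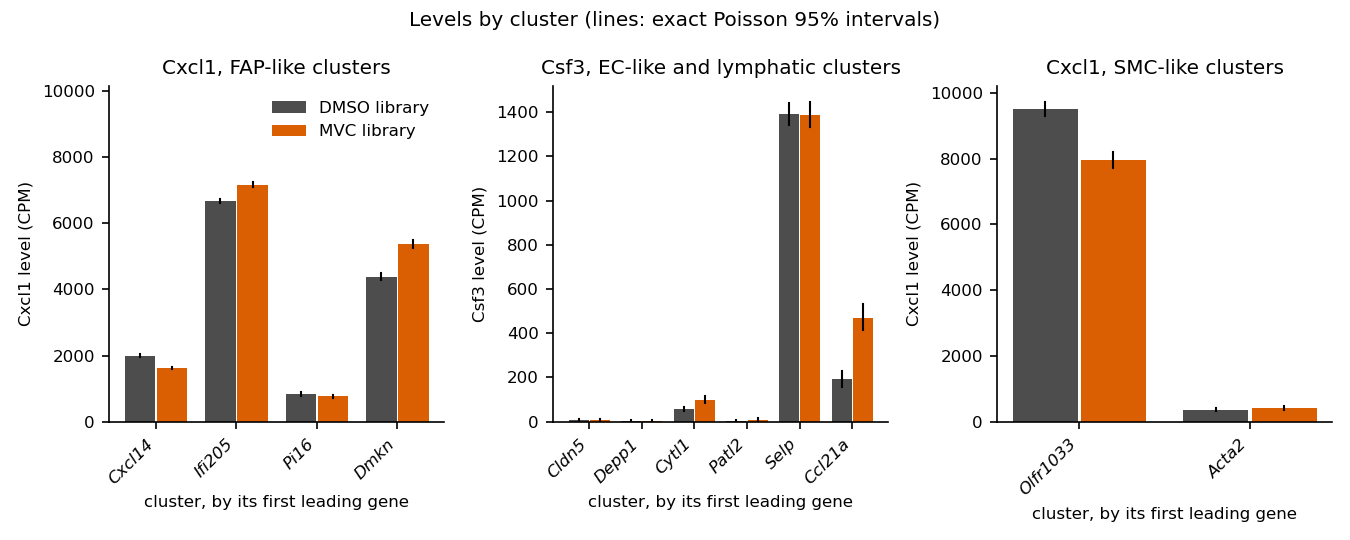
Levels (CPM, linear axes from 0) of Cxcl1 in the 4 FAP-like clusters, of Csf3 in the 5 EC-like clusters and the lymphatic EC-like cluster, and of Cxcl1 in the 2 SMC-like clusters, each cluster named by its first leading gene, with grey bars for DMSO, orange bars for MVC and lines for exact Poisson 95% intervals. Cxcl1 was highest in the Ifi205 cluster of FAP-like cells (6679 and 7173 CPM), and Csf3 in the Selp cluster of EC-like cells (1391 and 1388 CPM).

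Among SMC-like cells, Cxcl1 was nearly all in 1 of 2 clusters. The cluster led by Olfr1033, Gm13889 and Ccl19 (cluster 16), which had 6 SMC markers raised but none among its first 10 leading genes, was at 9519 CPM in DMSO and 7955 CPM in MVC (ratio 0.836, 0.804 to 0.868). The cluster led by Acta2 and Tagln (cluster 20), which encode contractile proteins of smooth muscle, was at 357 and 405 CPM. Over the class the ratio was 0.727 (0.700 to 0.755), with cluster 16 making up 115 of 180 SMC-like cells in DMSO and 79 of 128 in MVC.

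MuSC-like and tenocyte-like cells had more Cxcl1 in MVC, and perineurial-like cells had less. In MuSC-like cells the level was 2242 CPM in DMSO and 3002 CPM in MVC (ratio 1.34, 1.28 to 1.41), and the thinned share of cells was 54.7% (exact binomial interval 46.0 to 63.1%) and 63.7% (57.3 to 69.7%), which overlap. In tenocyte-like cells it was 493 and 888 CPM (ratio 1.80, 1.71 to 1.91), with thinned shares of 24.1% (20.1 to 28.4%) and 33.2% (28.9 to 37.7%). The background share in B cell-like cells, given above, was also higher in MVC, and its part in this difference was not tested. The tenocyte-like cluster led by Angptl7, Fmod and Comp went from 417 to 1082 CPM (ratio 2.60, 2.38 to 2.83) and the one led by Thbs4 from 549 to 730 CPM (ratio 1.33, 1.23 to 1.43). In perineurial-like cells Cxcl1 was at 5688 CPM in DMSO and 2642 CPM in MVC (ratio 0.464, 0.435 to 0.495), while the thinned shares were 68.4% and 63.8%. Markers of other classes differed beside these values. In MuSC-like cells the FAP markers summed to 106 CPM in DMSO (5 of 9 detected) and 768 CPM in MVC (9 of 9), the SMC markers to 21.4 and 145 CPM and the tenocyte markers to 29.1 and 143 CPM, and the MuSC markers to 1754 and 1847 CPM. In perineurial-like cells the FAP markers summed to 17405 CPM in DMSO (9 of 9) and 11357 CPM in MVC (8 of 9), and the perineurial markers to 2794 and 4615 CPM. In the FAP-like class itself the FAP markers summed to 17240 CPM in DMSO and 15855 CPM in MVC. By these markers the perineurial-like cells of DMSO were thus as high as FAP-like cells. Tenocyte-like cells were also high in the FAP markers, at 13077 CPM in DMSO and 13320 CPM in MVC. The part of cells or transcripts of other classes in these Cxcl1 levels and differences was not tested. The Cxcl1 ratio was 1.30 in pericyte-like cells, where the log2 difference went from 0.38 to -0.051 without the 3 highest cells of each library, so the sign turned. In EC-like cells it was 1.252 (1.199 to 1.308), a log2 difference of 0.32 that was 0.032 as a mean over cells of each cell's CPM.

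**Figure D3:**
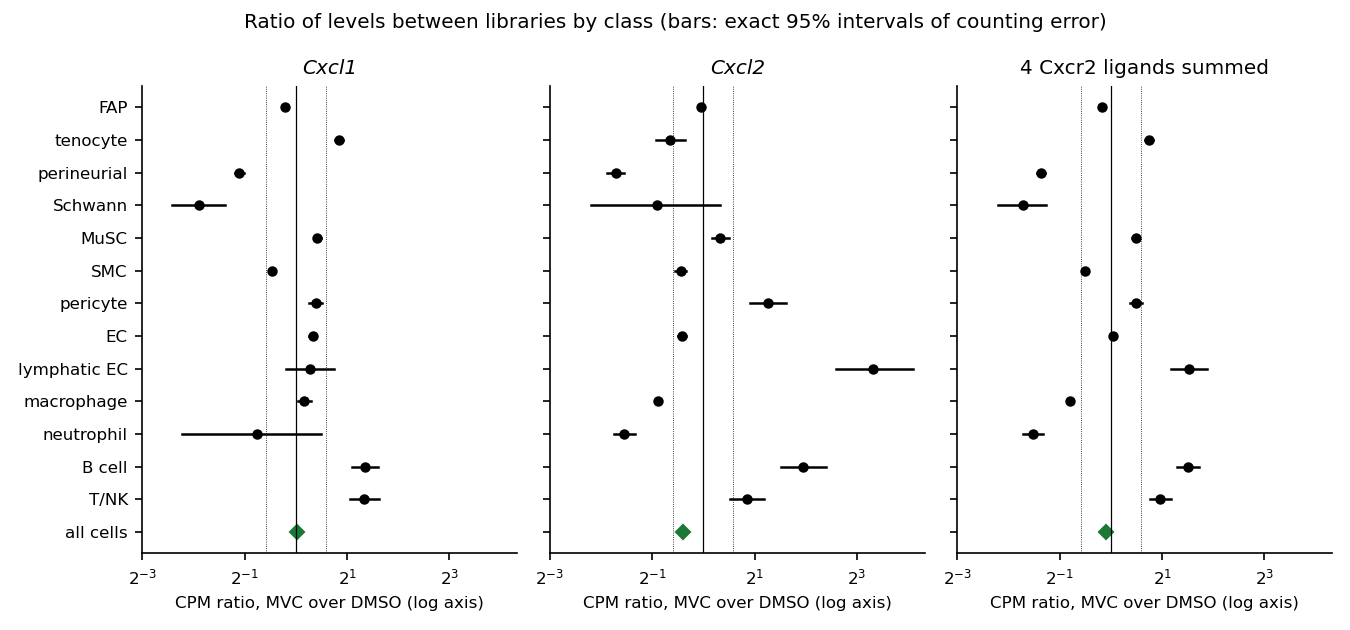
Ratio of the MVC to the DMSO level (x axis, log scale) of Cxcl1, Cxcl2 and the sum of the 4 chemokines in 13 classes and all cells (y axis), with bars for exact 95% intervals of counting error and dotted lines at a fold of 1.5 in either direction. Perineurial-like cells were below 1 in all 3 panels, lymphatic EC-like and MuSC-like cells above 1, and macrophage-like cells below 1 for Cxcl2 (0.542) but not for Cxcl1 (1.12).

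Cxcl2 had its highest level in macrophage-like cells in both libraries. These held 45.5% of its UMIs in DMSO and 39.8% in MVC, as 2.8% and 3.9% of the cells. FAP-like cells held 22.4% and 33.4%, EC-like cells 11.5% and 9.80%, and neutrophil-like cells 4.56% and 1.07%. In DMSO its level was 7327 CPM in macrophage-like cells, 2867 CPM in neutrophil-like cells, 2536 CPM in perineurial-like cells, 1285 CPM in SMC-like cells and 529 CPM in FAP-like cells, each separate from the next. In MVC it was 3973 CPM in macrophage-like cells, 983 CPM in neutrophil-like cells and 944 CPM in SMC-like cells, the last 2 overlapping, and then 774 CPM in perineurial-like cells. MuSC-like cells (417 and 525 CPM) and EC-like cells (336 and 252 CPM) were lower. After thinning, 58.0% (49.5 to 66.2%) of macrophage-like cells in DMSO and 42.1% (35.1 to 49.4%) in MVC had a UMI, and 3.45% and 4.35% of B cell-like cells.

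Cxcl2 was lower in the MVC library in both myeloid classes. In macrophage-like cells 13686 UMIs became 8352 (ratio 0.542, 0.528 to 0.557). The gene was uneven among these cells: in DMSO 1 cell held 1825 UMIs (13.3%) and 9 of 152 cells held 50% of the total, and in MVC the highest cell held 615 UMIs (7.36%) and 12 of 210 cells held 50%. In neutrophil-like cells the level was 2867 CPM in DMSO and 983 CPM in MVC (1372 and 224 UMIs; ratio 0.343, 0.296 to 0.395). The thinned share of neutrophil-like cells with Cxcl2 was 82.8% (71.3 to 91.1%) in DMSO and 57.6% (39.2 to 74.5%) in MVC. The median neutrophil-like cell had 24.6 Cxcl2 UMIs per 10000 in DMSO and 5.17 in MVC.

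Outside the myeloid classes the Cxcl2 differences were mixed. In EC-like cells the ratio was 0.748 (0.708 to 0.791), with thinned shares of 18.7% (17.0 to 20.5%) and 14.5% (12.7 to 16.4%). In perineurial-like cells it was 0.305 (0.272 to 0.342), and there 1 cell held 23.5% of the UMIs in DMSO and 1 cell 50.8% in MVC. FAP-like cells as a class were close to even (ratio 0.974, 0.941 to 1.01), with a log2 difference of -0.039 that was 0.32 with the DMSO cluster mix, and with ratios of 1.29 (1.24 to 1.35) in cluster 3, 1.39 (1.31 to 1.48) in cluster 15 and 0.432 (0.374 to 0.499) in cluster 1. Without the 3 cells with most UMIs in each library, the log2 difference of cluster 1 went from -1.21 to -0.61. MuSC-like cells had a ratio of 1.26 (1.12 to 1.41). The higher MVC values in lymphatic EC-like cells (18 and 144 UMIs) and pericyte-like cells (108 and 202 UMIs) came from few cells: 3 cells held 95.8% of the former in MVC and 1 cell 82.2% of the latter. Without the 3 highest cells of each library, the log2 difference went from 3.31 to 0.11 in the former and from 1.26 to -0.37 in the latter. Cxcl2 was at 55.8 and 216 CPM in B cell-like, 131 and 236 CPM in T/NK-like, 64.9 and 41.5 CPM in tenocyte-like and 27.3 and 14.6 CPM in Schwann-like cells.

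Cxcl3 was lower in MVC in macrophage-like cells, as was Cxcl2, and higher in MuSC-like cells. Macrophage-like cells held 69.5% of its UMIs in DMSO and 51.8% in MVC, with levels of 572 and 303 CPM (ratio 0.529, 0.479 to 0.584). In these cells, the 3 with most UMIs held 60.7% and 35.7% of the total, and without them the log2 difference went from -0.92 to -0.24. Neutrophil-like cells were at 130 CPM in DMSO and 43.9 CPM in MVC (ratio 0.339, 0.155 to 0.666), with 16 of 64 cells positive in DMSO and 1 of 34 in MVC. In perineurial-like cells the levels were 252 and 70.2 CPM, all from 3 cells in each library. In MuSC-like cells Cxcl3 was at 23.3 CPM in DMSO and 168 CPM in MVC (24 and 307 UMIs; ratio 7.20, 4.75 to 11.4), from 5 of 144 cells and 25 of 255 cells. The 3 MuSC-like cells with most held 50.5% of the MVC UMIs, and without the 3 highest cells of each library the log2 difference went from 2.85 to 4.08. With 5 positive cells in DMSO, leaving out 3 could hardly turn the sign. FAP-like cells went from 9.10 to 17.6 CPM (ratio 1.93, 1.54 to 2.44), from 14 and 11 positive cells, and 1 cell held 51.9% in MVC. Without the 3 highest cells of each library, the FAP-like log2 difference went from 0.95 to 0.42. T/NK-like cells had 57 UMIs in 3 cells in DMSO and 0 in MVC.

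The sources of Cxcl5 differed between the libraries. In DMSO perineurial-like cells held 48.5% of its UMIs, SMC-like cells 32.5% and FAP-like cells 12.2%, whereas in MVC FAP-like cells held 68.2%, MuSC-like cells 18.1% and perineurial-like cells 8.0%. Its level in perineurial-like cells was 908 CPM in DMSO and 168 CPM in MVC (626 and 79 UMIs; ratio 0.185, 0.145 to 0.234), from 12 and 5 cells. In SMC-like cells it was 284 and 10.9 CPM (ratio 0.0383, 0.0190 to 0.0693), and in DMSO 3 cells held 87.6% of it. FAP-like cells had 12.3 CPM in DMSO and 49.5 CPM in MVC (157 and 672 UMIs; ratio 4.02, 3.37 to 4.81), from 19 of 1175 and 46 of 1423 cells. In MuSC-like cells the levels were 33.0 and 97.3 CPM (34 and 178 UMIs; ratio 2.95, 2.03 to 4.39), from 4 and 27 cells. Macrophage-like cells had 42 UMIs in DMSO, 40 of them in 1 cell, and 4 in MVC. Each of these totals rested on few cells, so that the counting intervals do not show the spread between cells. Without the 3 highest cells of each library, the log2 difference was 2.92 in FAP-like cells (2.01 with them) and 4.43 in MuSC-like cells (1.56). It was -3.15 in SMC-like cells (-4.71) and -5.19 in perineurial-like cells (-2.43), and each kept its sign. MuSC-like cells of DMSO had 4 positive cells and perineurial-like cells of MVC 5. Leaving out 3 took most of these and could hardly turn the sign.

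**Figure D4:**
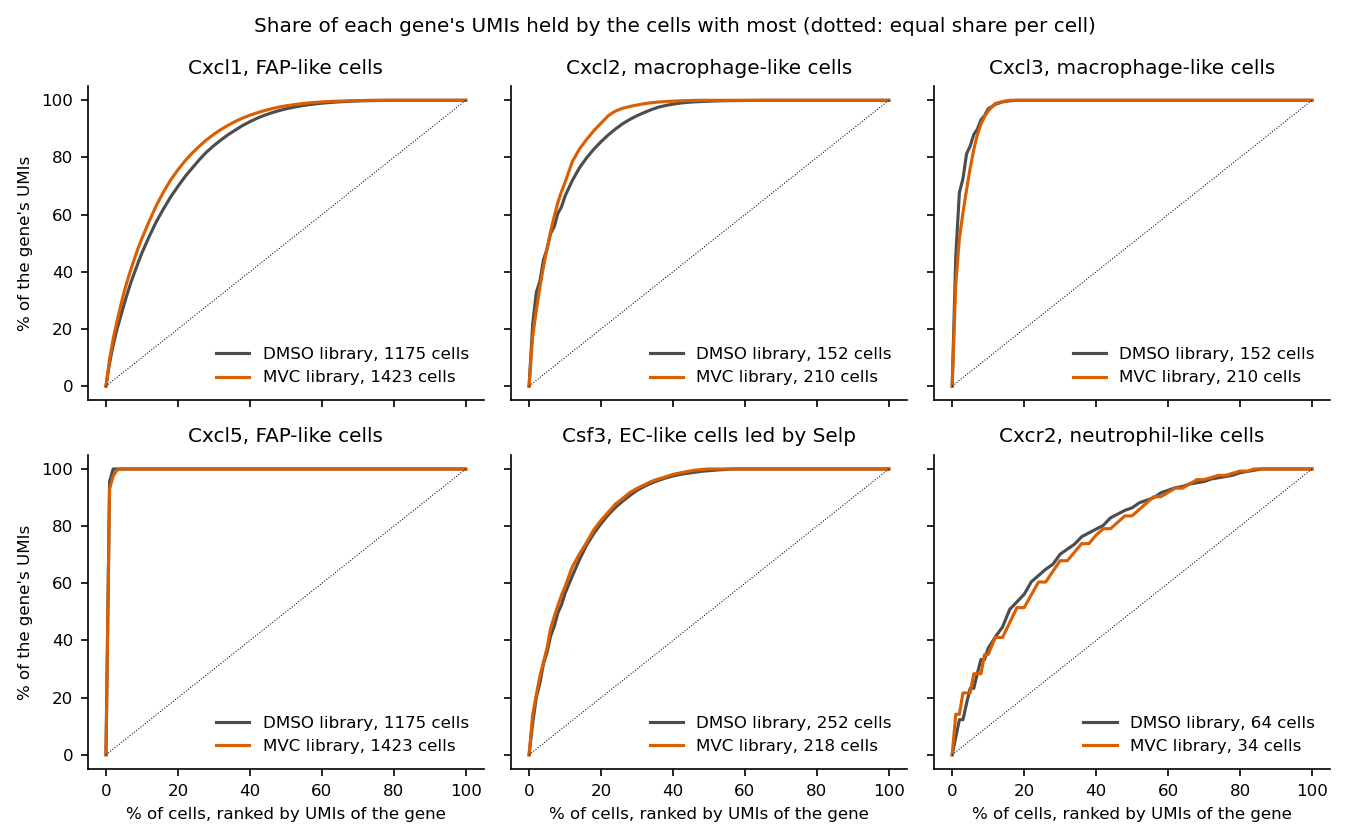
Cumulative share of a gene's UMIs (y axis, %) held by the cells with most, against the share of cells taken (x axis, %), for 6 pairs of gene and class, with grey lines for DMSO, orange lines for MVC and a dotted line for an equal share per cell. The Cxcl5 curves of FAP-like cells rise at once, since 19 and 46 cells held all UMIs, while the Cxcr2 curves of neutrophil-like cells, with 55 of 64 and 29 of 34 cells positive, rise most slowly.

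The chemokines were found in overlapping cells, unevenly so. After thinning, all 22 Cxcl3-positive macrophage-like cells in DMSO and all 24 in MVC also had Cxcl2, against 50.4% and 34.1% of the others. All 13 Cxcl3-positive neutrophil-like cells in DMSO also had Cxcl2, against 78.4% of the other neutrophil-like cells. Among Cxcl2-positive FAP-like cells 94.0% in DMSO and 93.4% in MVC had Cxcl1, against 63.8% and 59.8% of the Cxcl2-negative ones. This pools clusters that differ in Cxcl1, and the gap varied within them. In cluster 3 it was 97.8% against 85.0% in DMSO and 100% against 91.3% in MVC. In cluster 1 it was 81.8% against 48.5% and 72.7% against 47.1%. In the MuSC-like cells of MVC, all 20 Cxcl3-positive and all 13 Cxcl5-positive cells had Cxcl1, against 60.4% and 61.6% of the cells without each. There 1 cell had both Cxcl3 and Cxcl5, where the product of their shares gives 1.06 cells. Positive cells of a class come from the same library, so these shares are descriptions.

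Taken by class, the sum of the 4 chemokines ranged from 9384 CPM in perineurial-like cells of DMSO to 79.0 CPM in Schwann-like cells of MVC. Its ratio was 0.575 (0.561 to 0.590) in macrophage-like cells, 0.350 (0.304 to 0.401) in neutrophil-like cells, 0.389 (0.369 to 0.411) in perineurial-like cells and 0.699 (0.676 to 0.723) in SMC-like cells. It was 0.884 (0.874 to 0.894) in FAP-like cells, where the log2 difference turned from -0.18 to 0.12 with the DMSO cluster mix. It was 1.02 (0.991 to 1.06) in EC-like cells, an interval that includes 1. Under other ways of processing, the EC-like log2 difference was between -0.23 and 0.12. The ratio was 1.40 (1.34 to 1.46) in MuSC-like cells, 1.67 (1.58 to 1.76) in tenocyte-like cells and 2.87 (2.25 to 3.69) in lymphatic EC-like cells. In pericyte-like cells it was 1.41 (1.30 to 1.53), and the log2 difference turned from 0.49 to -0.10 without the 3 highest cells of each library. The near-even sum over all cells thus held classes on both sides of 1, weighted by how much of each library they made up. FAP-like cells, below 1, held 62150 of its 111723 UMIs in DMSO and 58534 of 96260 in MVC. The part of the class mix in this sum was not tested.

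Csf3 was an endothelial gene in these libraries. EC-like cells held 87.8% of its UMIs in DMSO and 85.8% in MVC, at 291 and 300 CPM (2993 and 2452 UMIs; ratio 1.03, 0.978 to 1.09). Nearly all came from the cluster led by Selp, Sele and Plvap (cluster 8), which encode adhesion and diaphragm proteins of venous endothelium. It was 4.6% and 4.0% of cells and held 83.7% and 78.9% of Csf3 UMIs. There Csf3 was at 1391 and 1388 CPM (2853 and 2254 UMIs; ratio 0.998, 0.944 to 1.05), with a UMI in 143 of 252 and 109 of 218 cells. The thinned shares in that cluster were 49.8% and 43.9%. In B cell-like cells 0 of 203 thinned cells had a UMI in DMSO and 1 of 92 in MVC. Cluster 8 also held the decoy receptor Ackr1, a chemokine-binding protein of venules, at 659 CPM in DMSO and 507 CPM in MVC. Cxcl1 was found in 47.3% and 56.6% of Csf3-positive cells of the cluster, against 31.9% and 29.2% of the others.

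Lymphatic EC-like cells also had Csf3, with a ratio above 1. Their level was 191 CPM in DMSO and 470 CPM in MVC (123 and 244 UMIs; ratio 2.46, 1.97 to 3.08), and in MVC it was above that of EC-like cells. The share of cells with a UMI was 14.7% and 20.8% after thinning, and 1 cell held 31.7% of the UMIs in DMSO and 15.2% in MVC. The EC-like cluster led by Cytl1 and Edn1 (cluster 4) had 56.1 CPM in DMSO and 98.9 CPM in MVC (ratio 1.76, 1.38 to 2.27), a log2 difference of 0.82 that was 2.03 without the 3 highest cells of each library. SMC-like cells went from 121 to 17.8 CPM (179 and 18 UMIs; ratio 0.147, 0.0850 to 0.239), from 8 and 3 cells. MuSC-like cells had 2 and 38 UMIs, from 2 and 6 cells, and macrophage-like cells 10 and 35. Other counts belonged largely to single cells, with all 53 UMIs of neutrophil-like cells in DMSO in 1 cell and 37 of the 38 of B cell-like cells in MVC in 1 cell.

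**Figure D5:**
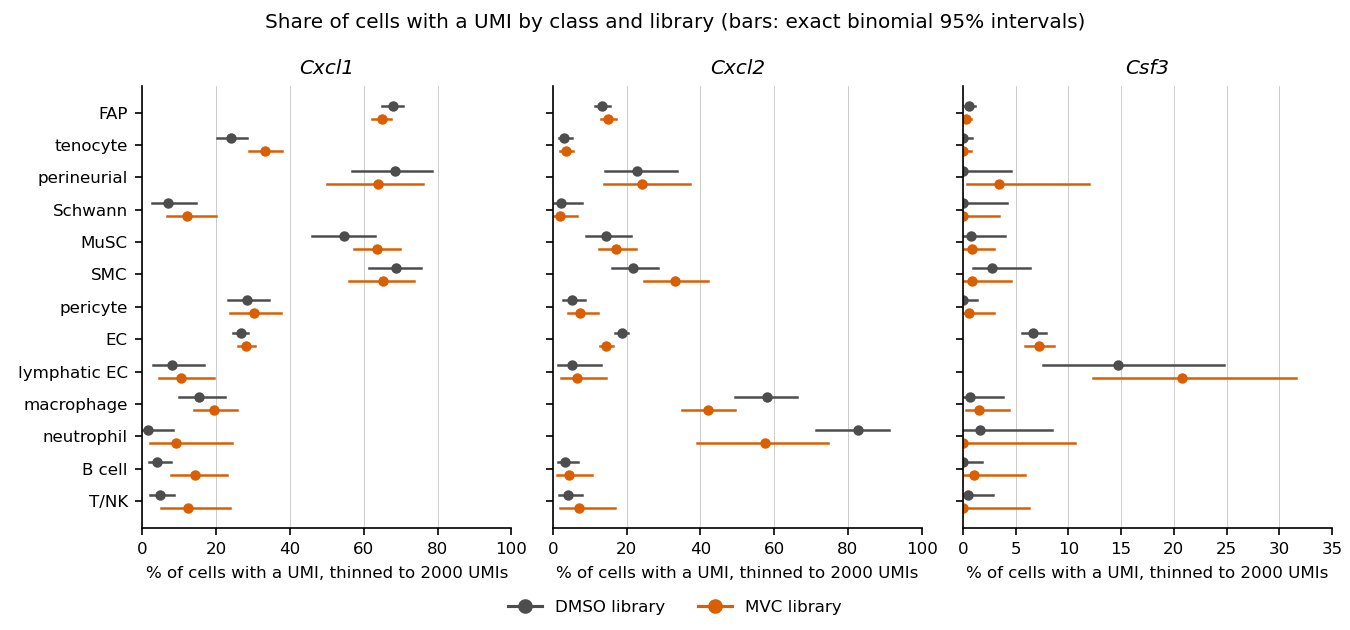
Share of cells with at least 1 UMI (x axis, %) of Cxcl1, Cxcl2 and Csf3 in 13 classes (y axis) after thinning each cell to 2000 UMIs, with grey points for DMSO, orange points for MVC and bars for exact binomial 95% intervals. For Cxcl2, neutrophil-like cells were at 82.8% in DMSO and 57.6% in MVC and macrophage-like cells at 58.0% and 42.1%, and for Cxcl1 tenocyte-like cells were at 24.1% and 33.2%.

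Cxcr2, the receptor, marked the neutrophil-like cells. They held 97.0% of its UMIs in DMSO and 97.8% in MVC, and no other class had more than 2 UMIs in a library. Within neutrophil-like cells its level was not lower in MVC as it was over all cells, at 476 CPM in DMSO and 588 CPM in MVC (228 and 134 UMIs; ratio 1.23, 0.990 to 1.53), and the interval includes 1. A UMI was found in 55 of 64 neutrophil-like cells in DMSO and in 29 of 34 in MVC. All 9 neutrophil markers were detected in this class in each library, at a summed 143436 CPM in DMSO and 206550 CPM in MVC. In lymphatic EC-like cells the same markers summed to 813 and 682 CPM, in macrophage-like cells to 476 and 754 CPM and in Schwann-like cells to 6.8 and 515 CPM. Csf3r, the receptor of G-CSF, was at 1350 CPM in DMSO and 1040 CPM in MVC in the neutrophil-like cells (646 and 237 UMIs; ratio 0.771, 0.661 to 0.896).

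Counted by class, members past a fold of 1.5 are to be read against all genes of the same class. In neutrophil-like cells 0 of 5 measured members were higher and 4 lower, where of all genes 16.6% were higher and 24.1% lower. Perineurial-like cells had 0 of 4 higher (all genes 20.3%) and 4 lower (14.5%), SMC-like cells 0 of 5 higher (16.6%) and 3 lower (10.1%), and macrophage-like cells 1 of 5 higher (15.0%) and 3 lower (9.18%). MuSC-like cells had 3 of 5 higher (16.5%) and 0 lower (11.1%), FAP-like cells 2 of 5 higher (14.8%) and 1 lower (5.13%), and EC-like cells 1 of 4 higher (13.1%) and 0 lower (5.67%). Lymphatic EC-like cells had 2 of 3 higher (13.6%) and 0 lower (15.7%), tenocyte-like cells 1 of 2 higher (12.6%) and 1 lower (7.98%), and pericyte-like cells 1 of 2 higher (14.4%) and 0 lower (8.21%). B cell-like cells had 3 of 3 higher (17.8%) and 0 lower (11.9%), T/NK-like cells 2 of 3 higher (19.4%) and 1 lower (17.4%), and Schwann-like cells 0 of 2 higher (17.2%) and 2 lower (10.7%). The B cell-like, T/NK-like and Schwann-like counts rest on few cells, since for example 3 cells held 91.2% of the Cxcl1 UMIs of Schwann-like cells in DMSO. Counts of other classes partly do so too, as given above. Among these are Csf3 in neutrophil-like, Cxcl5 in macrophage-like and SMC-like, and Cxcl3 in perineurial-like cells. Without doublet-scored cells the log2 difference turned to 1.17 for neutrophil-like Cxcl1 and to 1.76 for macrophage-like Cxcl5. The FAP markers summed to 246 CPM in DMSO and 2137 CPM in MVC in B cell-like cells and to 325 and 1808 CPM in T/NK-like cells. The tenocyte markers summed to 16.7 and 223 CPM in B cell-like and to 14.4 and 1062 CPM in T/NK-like cells. The T/NK-like class also held mast cell markers at 1211 and 1976 CPM (5 of 5 in each library), beside 1236 and 1273 CPM of its own. The part of these cells or transcripts in the member counts was not tested.

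Dissociation-response genes differed between the libraries in some of the classes where the members did. Zfp36 and Socs3 are counted among them and also among the pathway genes below, so the lists overlap. Of the 20 immediate-early and heat-shock genes, 10 were higher (all genes 16.5%) and 2 lower (11.1%) in MuSC-like cells of MVC. Their median log2 difference there was 0.60 (all genes 0.01). In perineurial-like cells 0 were higher (all genes 20.3%) and 13 lower (14.5%), with a median of -0.67 (all genes 0.09). In neutrophil-like cells 0 of 19 were higher (all genes 16.6%) and 9 lower (24.1%), with a median of -0.55. In macrophage-like cells, 3 were higher (all genes 15.0%) and 1 lower (9.18%), near the shares of all genes, with a median of 0.27. The medians were 0.20 in tenocyte-like cells, 0.04 in EC-like cells, 0.03 in FAP-like cells, -0.09 in SMC-like cells, -0.38 in lymphatic EC-like cells and -0.47 in pericyte-like cells. Within FAP-like cells they were 0.26 in cluster 3, 0.45 in cluster 15 and -0.37 in cluster 1, and the part of these genes in the member values was not tested.

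The 48 genes of the pathway were on balance close to even over all cells, with 1 of 45 measured higher (all genes 9.52%), 4 lower (7.54%) and a median log2 difference of -0.13 (all genes 0.06). Csf2, another colony-stimulating factor, was the higher one (7 and 34 UMIs). The lower ones were led by Csf3r (739 and 333 UMIs; ratio 0.492), Il1rn, the secreted interleukin-1 receptor antagonist (562 and 232 UMIs; ratio 0.450), and Osm, a cytokine of the interleukin-6 family (121 and 65 UMIs; ratio 0.586). In macrophage-like cells, where Cxcl2 was lower, its inducer Il1b was at 1002 CPM in DMSO and 1154 CPM in MVC (ratio 1.15, 1.08 to 1.22) and its inducer Tnf at 295 and 268 CPM (ratio 0.910, 0.807 to 1.02). There 4 of 40 pathway genes were higher (all genes 15.0%), led by Tnfaip3, an inhibitor of NF-κB signalling (ratio 1.71), Cebpd (1.53) and Il6 (2.28), and 6 were lower (all genes 9.18%), led by Pf4, a platelet-type CXC chemokine also made by macrophages (0.640), Socs3 (0.660) and Il1rn (0.456).

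In neutrophil-like cells 2 of 32 pathway genes were higher (all genes 16.6%) and 12 lower (24.1%), the latter led by Nfkbia, the inhibitor of NF-κB that is itself an NF-κB target (ratio 0.641), Nfkb1 (0.590) and Il1rn (0.525), while Il1b was at 1369 and 1461 CPM (ratio 1.07, 0.933 to 1.22). Perineurial-like cells had 5 of 31 higher (20.3%) and 12 lower (14.5%), the latter led by Cebpd (0.462), Zfp36l1, an mRNA decay factor that binds AU-rich elements (0.403), and Zfp36 (0.630). The interleukin-1 receptor Il1r1 was at 412 CPM in DMSO and 123 CPM in MVC in that class (ratio 0.299, 0.222 to 0.398). SMC-like cells had 4 of 32 higher (16.6%) and 7 lower (10.1%), the latter led by Cebpb (0.662), Il1r1 (0.635) and Cebpd (0.608). MuSC-like cells had 3 of 32 higher (16.5%), led by Tnfaip3 (66.0 and 153 CPM; ratio 2.31, 1.77 to 3.06), and 3 lower (11.1%), led by Socs3 (0.569) and Il6 (0.550). In FAP-like cells 4 of 39 were higher (14.8%) and 3 lower (5.13%), with Socs3 (652 and 333 CPM; ratio 0.510) and Lif (0.515) among the latter, and in EC-like cells 6 of 37 were higher (13.1%) and 0 lower (5.67%).

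Over the 25 points of class and library with at least 50 cells, the genes nearest to each main member differed. Among 13095 genes, Cxcl1 was most like Tmeff2 (Pearson r = 0.913 of log2(CPM + 10)), Asap3 (0.887), Dot1l (0.861), Ccl11 (0.850) and Hoxc8 (0.838). Cxcl2 was most like its neighbour in the family Cxcl3 (0.801), followed by Tuba1c (0.771), Abcc1 (0.734), Zyx (0.726) and Mapkapk2 (0.723). Csf3 was most like Lrg1 (0.883), Adgrg3 (0.846), Plvap (0.839), Mall (0.836) and Spns2 (0.829). With Spearman's correlation 2 of the 5 remained for Cxcl1, 3 for Cxcl2 and 0 for Csf3. Cxcl1 and Cxcl5 correlated with 0.739 and Cxcl1 and Cxcl2 with 0.428. The points share 2 libraries and the depth of each, so these values are descriptions.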

How the data were processed

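Single-cell RNA-seq libraries of limb-muscle mononuclear cells were compared, 1 from DMSO-treated and 1 from MVC-treated aged mice. The authors deposited raw UMI counts per gene and barcode, which the submitters' processing notes place after Cell Ranger 7.0.0 (with Seurat 5.0.1 and mm10 also named). Cells with fewer than 500 genes or more than 10% mitochondrial UMIs were removed, as in the study's methods. No background RNA was subtracted. Counts of each cell were scaled to 10000, and 2000 variable genes without the members, the pathway list, mitochondrial and sex-linked genes gave 30 components and Leiden clusters (20 neighbours, resolution 1, leidenalg 0.10.2, scikit-learn 1.9.0, no integration). A cluster took a class name when 3 or more fixed markers of that class were higher in it than in the other cells (log2 fold of 1 or more) and present in 20% or more of the cells, and when their mean log2 fold exceeded that of any other class with 3 such markers by 0.5; restricting the comparison to such classes was decided after the clusters were seen. Doublets were scored (236 and 238 cells) and kept, and their removal was an alternative.

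UMIs were summed per class and library and given as CPM, with exact Poisson intervals, exact conditional intervals of ratios and exact (Clopper-Pearson) binomial intervals of shares (numpy 2.4.6, scipy 1.17.1, pandas 2.3.3; figures with matplotlib 3.10.9). With 1 library per group no test was made. A gene was counted as higher or lower past a fold of 1.5 with at least 20 UMIs in the class; the scripts were tested on simulated data. Named genes were all members, at most 3 genes per list, class and direction with most UMIs, a few inducers, receptors and negative regulators of the pathway list added after their values had been seen (Il1b, Tnf, Il1r1, Csf3r, Ackr1), and the 5 genes most like Cxcl1, Cxcl2 and Csf3 among those with at least 200 UMIs (pseudocount of 10 CPM). Members, lists and markers were chosen with earlier results of these data known. Promoter sequences came from RefSeq and 3′ UTRs from the GRCm38 annotation. Myofibre-like cells (15 and 26) and the 2 unnamed clusters were too few or unmarked and are not described by class.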

Additional observations from a re-analysis of the deposited data

Results flagged for a closer look

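For 5 genes, 2 classes lay on opposite sides of even, and none of these differences between classes could be tested with 1 library per group. Cxcl1 had a ratio of MVC over DMSO of 1.80 in tenocyte-like cells and 0.464 in perineurial-like cells. Cxcl2 had a ratio of 1.81 in T/NK-like cells, where 1 cell held 54.2% of the UMIs in DMSO and 70.2% in MVC, and 0.542 in macrophage-like cells. Cxcl3 stood at 1.93 in FAP-like cells and 0.529 in macrophage-like cells. Cxcl5 stood at 4.02 in FAP-like cells and 0.185 in perineurial-like cells, and Csf3 at 2.46 in lymphatic EC-like cells and 0.147 in SMC-like cells.

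Barcodes removed for few genes or many mitochondrial UMIs, 375 in DMSO and 593 in MVC, also held members. Cxcl1 had 326 UMIs in those of MVC and 148 in those of DMSO (598 and 368 CPM), Cxcl5 had 8 and 4 UMIs, and Csf3 had 11 and 8 UMIs. Their share of all UMIs of the gene was small beside the 73073 and 78797 Cxcl1 UMIs of kept cells.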

How the results depend on the processing

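No paired analysis was possible because each group was 1 library. Of 98 possible log2 ratios of a gene or the sum in a class or all cells, 66 had at least 20 UMIs and were above 0 in both libraries, 42 of these passed the fold of 1.5, and 26 did so under every alternative that gave a value for them. Removing doublet-scored cells left 32 of 42 past the fold, a stricter filter on cells 42, a mean over cells of each cell's CPM 37, scaling by the median ratio of all genes 42, clusters drawn with the listed genes 41 of 41 and clusters after centring within library 41 of 41. Leaving out the 3 cells with most UMIs of each gene per class and library, an alternative chosen after seeing the data like the cluster mix, left 22 of the 33 for which it gave a value. The sign was the main one in 57 of 66 without doublet-scored cells, 59 of 66 with the mean over cells, 63 of 66 after scaling, 66 of 66 with the stricter filter, 59 of 59 under either clustering, 47 of 57 without the 3 highest cells and 8 of 11 with the DMSO cluster mix.

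Over all cells, the log2 difference of the summed chemokines was -0.09, and it was -0.076 with the stricter filter, 0.0079 with the mean over cells, -0.15 after scaling and -0.061 without the 3 highest cells; that of Csf3 went from -0.13 to -0.023 with the mean over cells. Without doublet-scored cells the highest levels moved for Cxcl1 in MVC (SMC-like cells, 4105 to 4391 CPM) and, in DMSO, for Cxcl2 (macrophage-like cells, 7327 to 8109 CPM), Cxcl3 (macrophage-like cells, 572 to 638 CPM) and Csf3 (EC-like cells, 291 to 302 CPM).

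Signs turned in larger totals that were closer to even, of which only some are named. With the DMSO cluster mix the log2 difference became 0.12 for the FAP-like sum and 0.32 for FAP-like Cxcl2. With the mean over cells it became 0.16 for Cxcl3 and 0.16 for Cxcl5 over all cells. Macrophage-like Cxcl1 went to -0.24 with the mean over cells and to -0.30 without doublet-scored cells. Without the 3 highest cells, Cxcl3 over all cells went to 0.21 and pericyte-like Cxcl1 to -0.051. At the lowest alternative, the EC-like sum went from 0.035 to -0.23, EC-like Csf3 from 0.045 to -0.023 and Cxcl1 over all cells from 0.017 to -0.042. Differences past the fold also turned. Without doublet-scored cells the log2 difference became 0.066 for Cxcl1 in Schwann-like cells, -1.20 for Cxcl1, -3.04 for Cxcl2 and -2.32 for the sum in T/NK-like cells, 1.76 for Cxcl5 in macrophage-like cells and 1.17 for Cxcl1 in neutrophil-like cells, where the mean over cells gave 0.60. Without the 3 highest cells it became 0.95 for Cxcl1, 0.028 for Cxcl2 and 0.36 for the sum in Schwann-like cells, -0.99 for Cxcl2 in T/NK-like cells, 1.08 for Cxcl1 in neutrophil-like cells and -0.37 for Cxcl2 in pericyte-like cells. The lymphatic EC-like Cxcl2 difference went from 3.31 to 0.11 without them, that of Cxcl3 in macrophage-like cells went from -0.92 to -0.24, and that of Cxcl3 in FAP-like cells from 0.95 to 0.42. The cause of these moves was not tested beyond the cells left out. Of the 26 differences kept under every alternative, only some are named here. They include the lower Cxcl2 of macrophage-like cells (-1.01 to -0.67) and neutrophil-like cells (-1.63 to -1.51). Also among them are the higher Cxcl1 of tenocyte-like cells (0.77 to 0.91), Csf3 of lymphatic EC-like cells (1.23 to 1.74) and Cxcl3 of MuSC-like cells (2.85 to 4.08). The last rested on 24 UMIs from few cells in DMSO, so leaving out the 3 highest cells could hardly turn its sign.

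The libraries cannot separate treatment from mouse, dissociation or day, and the number of mice per library is not known. Free RNA was not removed, and low shares in classes that should lack a gene were read as background. Free RNA, doublets and single cells with many UMIs were not told apart as its source. Totals of Cxcl3, Cxcl5 and Csf3 in a class often rest on 1 to 5 cells, and 0 UMIs in a class allows up to the level of 3 counts.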
